A study of Homo sapiens with 6 samples.

Results

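A set of 10 genes that carry or pass on growth signals in a leukaemia line were examined: the fusion partner genes BCR and ABL1, the receptor genes EPOR and KIT, the kinase gene JAK2, the transcription factor genes STAT5A and STAT5B, and the STAT5-responsive genes PIM1, SOCS2 and CISH. They were chosen by name, as the 2 genes joined in the fusion of this line and the main steps of cytokine signalling, and all 10 were found by symbol among the 26485 symbols of the whole-number count tables and the 28069 genes of the estimated count tables. All 10 also passed the filter on low counts, which left 12282 genes in the tests.

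RNA was measured by sequencing in K562, an established human myeloid leukaemia cell line, in 6 libraries. The control group carried the guide sgNeg2 and was labelled WT for genotype, and the other groups carried ZNF410_sgRNA#1 or ZNF410_sgRNA#2 (here sgRNA1 and sgRNA2) and were labelled as ZNF410 knockout. ZNF410 is a zinc finger transcription factor. Each group had 2 libraries, titled rep1 and rep2 (here numbered 1 and 2), all from cells grown in medium with serum and with no drug or cytokine named. The labels do not say whether a library came from a clone or a pool. Nor do they say whether numbers mark separate cultures, or what kind of replicate a number stands for. The p-values thus measure only the spread between these libraries, which may be technical. Gene counts summed to 8788816 to 9537470 per library. ZNF410 itself was counted 331 and 322 times in the sgNeg2 libraries, 175 and 234 times with sgRNA1 and 157 and 190 times with sgRNA2, so the knockout libraries kept part of its RNA. All 10 erythroid and K562 marker genes were above 1 FPKM (a level scaled to transcript length and library depth) in every library, whereas the B cell markers MS4A1 and PAX5 and the megakaryocyte markers PF4 and GP9 had no counts.

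In chronic myeloid leukaemia a translocation joins the front of BCR to most of ABL1, and the fusion kinase is active without a growth factor. Cytokine receptors such as the erythropoietin receptor normally switch on JAK2, which phosphorylates STAT5, and STAT5 then enters the nucleus and raises genes such as CISH, SOCS2 and PIM1. The fusion kinase reaches STAT5 without the receptor. CISH and SOCS2 are members of the suppressor of cytokine signalling family and damp the pathway in return, and PIM1 is a kinase that promotes survival.

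The promoters of CISH and EPOR are shown because CISH is a textbook STAT5 target and EPOR differed most of the 10 between the library numbers. Sequences are from RefSeq, on GRCh38.p14, both on the minus strand, over the 250 bases before the start site. They lie at chr3:50611775-50612024 for CISH and chr19:11384315-11384564 for EPOR. Capitals mark the STAT5-type motif TTCNNNGAA in CISH and a GATA-type motif in EPOR, searched on both strands.
CISH: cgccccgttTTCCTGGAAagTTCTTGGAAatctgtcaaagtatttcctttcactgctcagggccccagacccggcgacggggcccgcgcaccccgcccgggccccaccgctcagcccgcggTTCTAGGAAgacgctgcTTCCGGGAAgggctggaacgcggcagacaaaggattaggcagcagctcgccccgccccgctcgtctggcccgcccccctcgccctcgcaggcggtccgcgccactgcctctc
EPOR: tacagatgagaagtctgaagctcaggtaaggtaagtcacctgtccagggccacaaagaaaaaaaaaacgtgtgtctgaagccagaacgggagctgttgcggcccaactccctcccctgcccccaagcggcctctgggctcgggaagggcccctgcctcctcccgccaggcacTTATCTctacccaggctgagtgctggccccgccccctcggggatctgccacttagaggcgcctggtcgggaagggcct

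CISH was the only one of the 9 genes with a promoter in the table (14 promoter windows of 300 bases, 250 before to 50 after the start) that held TTCNNNGAA. It held 4 matches, which start at positions -241, -230, -129 and -112. Of 35116 human promoters of the same length, 7.66% held the motif at least once and 0.0199%, or 7 promoters, held it at least 4 times. The GATA-type motif (the letters AGATAA with G allowed at the end and T at the start) was found once, in EPOR at position -78 on the reverse strand, and 25% of promoters held it. No SOCS2 promoter was in the table. A match of letters is a description and does not show that a factor binds there.

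**Figure D1:**
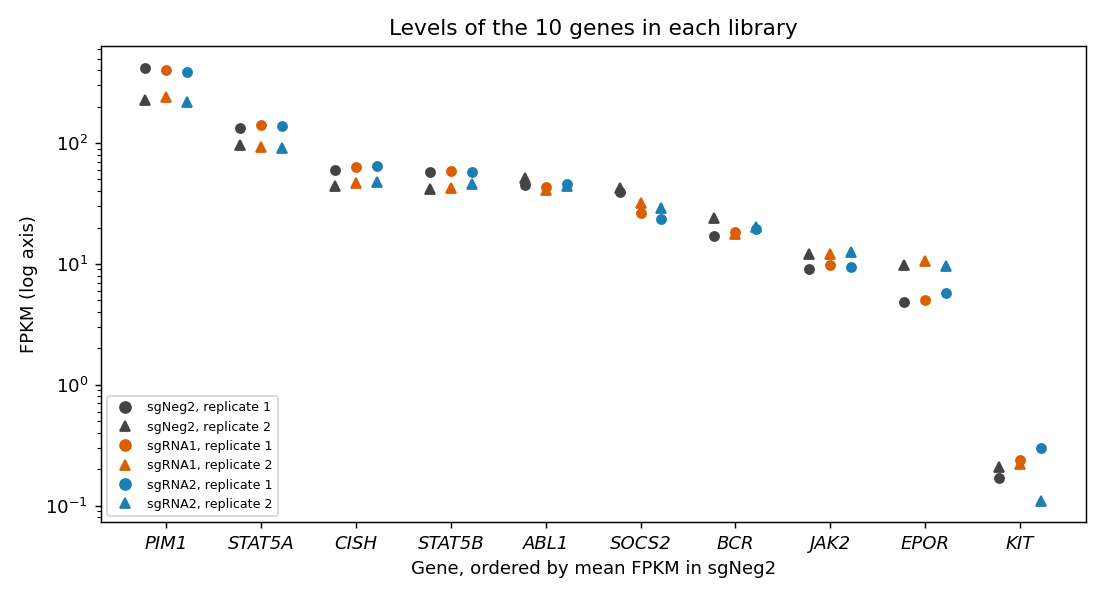
Level of each of the 10 genes in each library, in FPKM on a log axis, with genes ordered by their mean in the control libraries. Circles and triangles stand for libraries numbered 1 and 2 and colours for the guide; PIM1 lies highest, between 218 and 421 FPKM, and KIT lowest, between 0.11 and 0.3 FPKM.

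The genes spanned a wide range of levels, from PIM1 and STAT5A at the top to the receptor genes at the bottom. In the sgNeg2 libraries PIM1 was at 421 and 228 FPKM and STAT5A at 132 and 95.6 FPKM. The order by mean control FPKM was PIM1, STAT5A, CISH, STAT5B, ABL1, SOCS2, BCR, JAK2, EPOR and KIT, and it was the same when whole-number counts were divided by gene length. Among 11720 genes with a control mean of at least 0.5 FPKM, PIM1 lay at percentile 97.8, STAT5A at 92.2, ABL1 at 81.9, BCR at 64.2 and EPOR at 38.4. Neighbours whose 2 control libraries overlapped were CISH and STAT5B, STAT5B and ABL1, and JAK2 and EPOR; STAT5B lay above ABL1 in 5 of 6 libraries. The other neighbours kept their order in 6 of 6 libraries.

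Both fusion partners were expressed in every library, ABL1 above BCR. BCR (chr22:23180509-23318037, plus strand), whose start drives the fusion, was at 16.95 and 23.79 FPKM in sgNeg2, 18.42 and 17.60 with sgRNA1 and 19.52 and 20.26 with sgRNA2. ABL1 (chr9:130713043-130887675, plus strand), which supplies the kinase, was at 44.82 and 51.53 FPKM in sgNeg2, 43.64 and 40.81 with sgRNA1 and 46.26 and 44.31 with sgRNA2. sgNeg2 library 2 was the highest for both genes, and sgNeg2 library 1 was the lowest for BCR. The FPKM of ABL1 was 2.64 and 2.17 times that of BCR in sgNeg2 and 2.19 to 2.37 times that of BCR in the knockout libraries. Counts per gene do not tell the fusion transcript from the unfused genes.

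The neighbours of ABL1 and BCR were mostly near 0. At lower coordinates than ABL1, FUBP3 was at 36.87 to 41.01 FPKM and EXOSC2, the nearest gene on that side, at 35.63 to 40.81 FPKM, whereas PRDM12 between them was at most 0.16 FPKM. At higher coordinates QRFP, FIBCD1 and LAMC3 were at most 0.09 FPKM. Beside BCR, the genes IGLL5, GNAZ, RAB36, IGLL1 and DRICH1 did not exceed 1.06 FPKM.

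The receptor genes had the lowest mean levels of the 10. EPOR (chr19:11377207-11384314, minus strand), which encodes the erythropoietin receptor, was at 4.83 and 9.76 FPKM in sgNeg2, 4.99 and 10.52 with sgRNA1 and 5.71 and 9.60 with sgRNA2, so the libraries numbered 2 lay above those numbered 1. KIT (chr4:54657957-54740715, plus strand), the receptor for stem cell factor, was counted 10 and 12 times in sgNeg2, 12 and 13 times with sgRNA1 and 14 and 4 times with sgRNA2. At this depth a change of KIT was not bounded tightly, with a 95% interval of -1.33 to 1.20 on the log2 scale (knockout against control, without the block).

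The signal-relay genes JAK2, STAT5A and STAT5B were expressed in all libraries at levels that split by library number. JAK2 (chr9:4984390-5129948, plus strand) was at 9.06 and 12.06 FPKM in sgNeg2, 9.71 and 12.00 with sgRNA1 and 9.48 and 12.47 with sgRNA2. STAT5A (chr17:42287439-42311943, plus strand) was at 132.43 and 95.60 FPKM, 140.93 and 92.46, and 138.72 and 90.48 in the same order of groups. STAT5B (chr17:42199177-42288370, minus strand) was at 58.10 and 41.40, 58.56 and 42.16, and 58.11 and 45.45 FPKM. Libraries numbered 2 were higher for JAK2 and lower for both STAT5 genes, with no overlap between the numbers. In CPM (counts scaled to library size), 52.1% of all genes tested had no overlap between the numbers either. STAT5A exceeded STAT5B by 1.99 to 2.41 times in FPKM. The STAT5 genes lie on opposite strands and overlap at their starts, and they are close copies, so their split of reads is uncertain.

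PIM1 and CISH, a kinase gene and a feedback gene that STAT5 raises, had the same split by library number as the STAT5 genes. PIM1 (chr6:37170152-37175428, plus strand) was at 421.22 and 228.28 FPKM in sgNeg2, 401.08 and 239.95 with sgRNA1 and 389.35 and 217.51 with sgRNA2. CISH (chr3:50606489-50611774, minus strand) was at 59.64 and 44.00, 63.60 and 47.10, and 64.23 and 47.89 FPKM. Both were lower in every library numbered 2, a split without overlap that 52.1% of all genes tested had in CPM, in either direction. CISH overlaps MAPKAPK3, which had 747 to 1011 counts, and SOCS2 overlaps the antisense gene SOCS2-AS1, which had 13 to 43 counts, so with no strand setting given these counts are uncertain.

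SOCS2 was lower with both guides, and it was the member called between knockout and control once the library number was a block in the test. SOCS2 (chr12:93569969-93626236) encodes a suppressor of cytokine signalling best known for restraining the growth hormone pathway. It was at 100.3 and 110.7 CPM (counts scaled to library size) in sgNeg2, 66.1 and 87.1 with sgRNA1 and 59.0 and 71.7 with sgRNA2, which came from 546 to 1049 counts per library. The group means were 106 ± 7.32 CPM in sgNeg2, 76.6 ± 14.8 with sgRNA1 and 65.4 ± 8.97 with sgRNA2 (SD, n = 2 each). All 4 knockout libraries lay below both control libraries. Between libraries of the same number the log2 difference was -0.60 and -0.76 in number 1 and -0.34 and -0.62 in number 2, for sgRNA1 and sgRNA2. The summed FPKM of the erythroid and K562 markers, mostly globin genes, was above its same-numbered control in each knockout library. It was 18130 and 19180 against 14090 in number 1 and 43930 and 41820 against 30660 in number 2. The megakaryocyte sum, mostly ITGA2B, was higher in each too (10.4 and 9.4 against 7.22, 1.37 and 1.5 against 1.19). The T cell sum, mostly CD3D, was lower in each (32.33 and 23.53 against 39.03, 5.2 and 4.95 against 7.36), as were the monocyte and epithelial sums. The part of these sums in the SOCS2 difference was not tested.

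In the test without the library number as a block, edgeR's quasi-likelihood test called none of the 10 genes, nor any of the 12282 (0% called; 284 genes and 1 of the 10, SOCS2, had an unadjusted p under 0.05). There SOCS2 fell by 0.57 on the log2 scale (SE 0.155, n = 4 against 2), with an unadjusted p of 0.00803 and an adjusted p of 1. DESeq2 on the same groups called none of the 10, beside 19 of 12282 genes, but gave KIT no adjusted p. With limma on log2(FPKM + 1), 9 of the 10 were tested, without KIT. None of these 9 was called, beside 1 gene in all. With the number as a block, SOCS2 fell by 0.58 (SE 0.0826, adjusted p = 0.0016) and was the 1 member called of 10, against 226 genes or 1.84% of all tested and 0.651% called lower. By guide, with the block, it fell by 0.47 with sgRNA1 (SE 0.0809, adjusted p = 0.00994) and by 0.69 with sgRNA2 (SE 0.0821, adjusted p = 0.000444), where 0.887% and 1.38% of all genes were called. The difference between the guides, 0.23 lower with sgRNA2 (SE 0.0839), had an adjusted p of 0.999, where 0.0896% of all genes were called and 0 of the 10 (1 at an unadjusted p under 0.05). Without sgRNA1 library 1 the fall with sgRNA1 was 0.38 and was not called (adjusted p = 0.379). As a description, groups that did not overlap were found for 9.44% of all genes tested, 4.4% with knockout lower; SOCS2 was the only 1 of the 10 with no overlap.

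**Figure D2:**
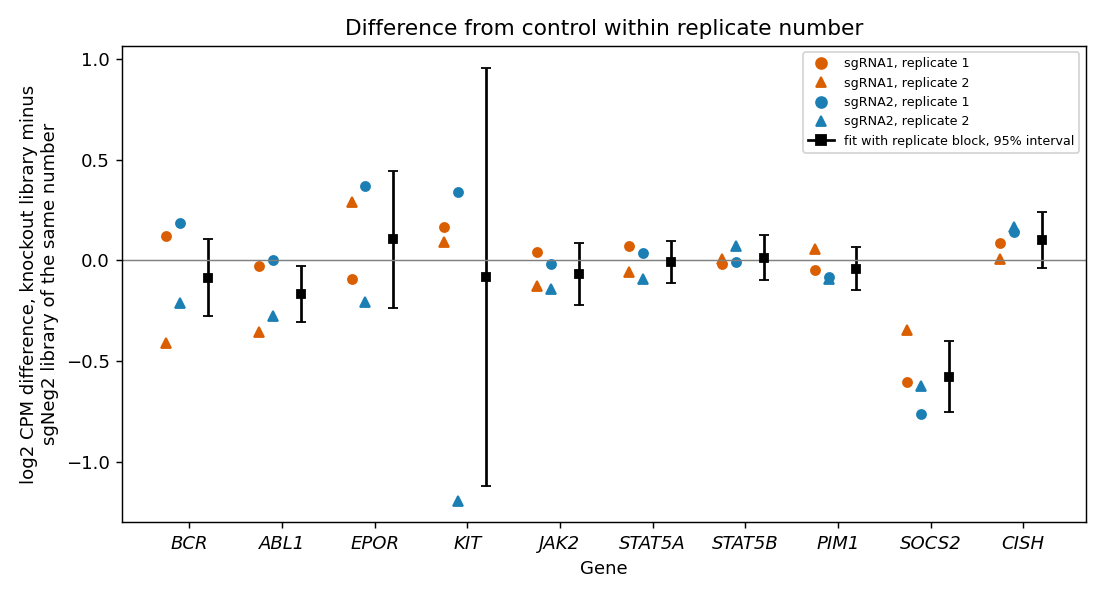
Difference in log2 CPM between each knockout library and the sgNeg2 library of the same number, for the 10 genes. Circles and triangles are libraries 1 and 2, and black squares with bars are the knockout effect and 95% interval from the test with the replicate block; the 4 SOCS2 points lie between -0.76 and -0.34.

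For the other 9 members no change was called, with or without the block. With the block, the 95% interval of knockout against control on the log2 scale was -0.28 to 0.10 for BCR, -0.22 to 0.09 for JAK2, -0.11 to 0.10 for STAT5A, -0.10 to 0.13 for STAT5B, -0.15 to 0.07 for PIM1 and -0.04 to 0.24 for CISH. The interval of ABL1, -0.31 to -0.03, did not span 0, but its adjusted p was 0.261. EPOR, at -0.23 to 0.44, and KIT, at -1.12 to 0.96, were bounded less tightly. Without the block the intervals were wider, for instance -0.84 to 0.74 for PIM1 and -0.56 to 0.56 for STAT5A. CISH was higher in 4 of 4 comparisons with the control of the same number, by 0.01 to 0.17 in log2 CPM, but control and knockout ranges overlapped. ABL1 was 0.17 lower in knockout without the block (SE 0.0907).

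BCR and ABL1 differed from the control in opposite ways, or by different amounts, in the 2 library numbers. In number 1, BCR was at 118.2 CPM in sgNeg2, 128.5 with sgRNA1 and 134.7 with sgRNA2, and in number 2 it was at 160.5, 120.8 and 138.7 CPM. ABL1 was at 260.9, 255.5 and 261.2 CPM in number 1 and at 294, 229.6 and 242.6 CPM in number 2. The control of number 2 was thus the highest library for both. A test added after these values were seen, of whether the knockout effect differed between the numbers, gave -0.46 for BCR (SE 0.13, edgeR adjusted p = 0.254) and -0.30 for ABL1 (SE 0.103, adjusted p = 0.375). Without sgNeg2 library 1 and with the block, where number 2 holds the only control library, ABL1 was called lower in knockout (-0.32, adjusted p = 0.0339), with sgRNA1 (-0.35, adjusted p = 0.000254) and with sgRNA2 (-0.29, adjusted p = 0.00388), and BCR was called lower with sgRNA1 (-0.38, adjusted p = 0.00073). In those fits 123 genes of 12282 were called for knockout, 316 with sgRNA1 and 388 with sgRNA2, against 226, 109 and 170 with all libraries. Without sgNeg2 library 2 and with the block, neither was called: the knockout difference was 0.16 for BCR (adjusted p = 0.481) and -0.01 for ABL1 (adjusted p = 0.959). With the block and all libraries, ABL1 had an adjusted p of 0.261 and BCR of 0.747.

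**Figure D3:**
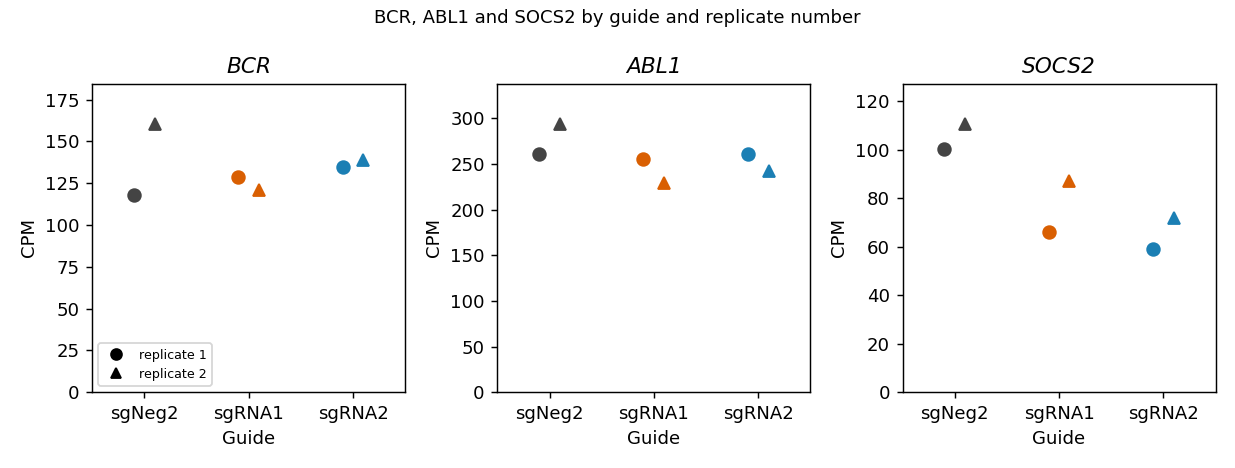
CPM of BCR, ABL1 and SOCS2 in each library by guide, from an axis that starts at 0; circles are libraries numbered 1 and triangles those numbered 2. For SOCS2 the sgNeg2 libraries lie at 100.3 and 110.7 CPM, above all knockout libraries, whereas for BCR and ABL1 the sgNeg2 library 2 lies highest.

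More of the members were called between the library numbers than between guides. Of the 10, 7 were called between number 2 and number 1 with group as a term (edgeR, n = 3 against 3), where 45% of all genes were called, so a large share of the transcriptome differed too. EPOR, JAK2 and SOCS2 were called higher in number 2, against 21.6% of all genes, and PIM1, STAT5A, STAT5B and CISH lower, against 23.5%. BCR, ABL1 and KIT were not called, and BCR was called higher (0.24, adjusted p = 0.039) without sgRNA1 library 2. The median absolute log2 difference was 0.42 for the 10 and 0.255 over all genes.

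EPOR rose most. It was at 12.69, 11.89 and 16.44 CPM in the libraries numbered 1 and at 27.12, 33.24 and 23.47 CPM in those numbered 2, for sgNeg2, sgRNA1 and sgRNA2. The difference was 1.03 on the log2 scale (SE 0.154, adjusted p = 9.95e-05). JAK2 went up by 0.38 (SE 0.0717, adjusted p = 0.000673), from 48.22 to 50.29 CPM in number 1 to 61.51 to 67.95 CPM in number 2. SOCS2 was 0.27 higher (SE 0.0671, edgeR adjusted p = 0.00472), but its numbers overlap in CPM. The call was lost without either sgRNA1 library (0.21). It was also lost in the fit with no group term (0.26, edgeR adjusted p = 0.284). That fit called 6 of the 10 and 5028 of 12282 genes.

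The STAT5 genes and 2 of their targets were lower in number 2. PIM1 was at 1127, 1090 and 1064 CPM in number 1 and at 628.2, 654.6 and 589.7 CPM in number 2, and the difference was -0.81 (SE 0.0448, adjusted p = 8.7e-09). STAT5A fell by 0.56 (SE 0.0477, adjusted p = 5.44e-07), STAT5B by 0.48 (SE 0.0494, adjusted p = 3.28e-06) and CISH by 0.43 (SE 0.058, adjusted p = 3.57e-05). Groups by number did not overlap for 6 of the 10 members (CISH, EPOR, JAK2, PIM1, STAT5A and STAT5B), beside 52.1% of all genes. The erythroid and K562 marker list summed to 14090 to 19180 FPKM in number 1 and 30660 to 43930 in number 2, whereas the megakaryocyte list, in which PF4 was at 0 and GP9 at most 0.27 FPKM, summed to 7.22 to 10.4 and 1.19 to 1.5 FPKM. The monocyte list summed to 41.33 to 43.06 and 21.46 to 21.82 FPKM, the T cell list to 23.53 to 39.03 and 4.95 to 7.36, and the epithelial list to 607.4 to 645.2 and 455.1 to 473.7. The globin genes HBG1, HBG2, HBE1 and HBZ made up most of the erythroid sum, whereas over all 6 libraries GATA1 stayed between 184.53 and 222.81 FPKM, KLF1 between 146.41 and 196.64 and NFE2 between 136.48 and 182.25. Likewise 1 gene made up most or nearly all of the megakaryocyte sum (ITGA2B, 0.84 to 10.16 FPKM, the other 4 markers at most 0.27), of the monocyte sum (CD68, up to 42.97 FPKM, the other 4 markers at most 0.3) and of the T cell sum (CD3D, up to 38.46 FPKM, the other 4 at most 0.33). The part of these in the differences was not tested, and in bulk RNA fewer cells of a type cannot be told apart from less RNA per cell.

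**Figure D4:**
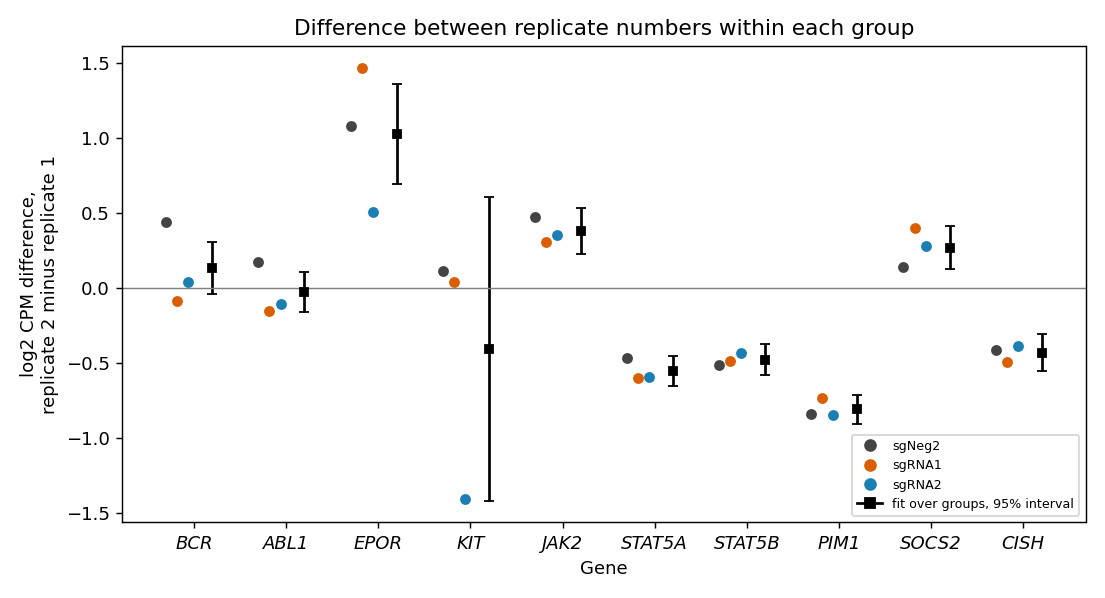
Difference in log2 CPM between the library numbered 2 and the library numbered 1 of each group, for the 10 genes; colours are groups and black squares with bars are the difference over groups and its 95% interval. EPOR lies at 0.51 to 1.47 and PIM1 at -0.85 to -0.74.

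Beyond the 10, 132 further genes of the pathway were taken in lists, of which 106 were tested. They were receptors (13 tested of 26), ligands (3 of 9), other JAK and STAT proteins (6 of 8), adaptors and partner kinases of the fusion (25 of 27), further STAT5 targets (12 of 13), negative regulators (24 of 27) and RAS and PI3K pathway genes (26 of 27), with some genes in more than 1 list. Knockout against control called 0 of the 106 without the block, and DESeq2 called 0 of them. In edgeR 5 of the 106 had an unadjusted p under 0.05, beside 284 of 12282 genes. With the block 1 was called higher and 2 lower, against 1.84% of all genes, and DESeq2 called 1 of them, PTPRC.

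The called genes were FYN, a SRC-family kinase, and the negative regulators PTPRC, a receptor phosphatase (CD45), and SPRY4, an inhibitor of RAS signalling. FYN rose by 0.27 on the log2 scale (SE 0.0617, edgeR adjusted p = 0.0325), from 84.3 and 86.0 CPM in sgNeg2 to 100.8 to 104.9 CPM in the knockout libraries. Its groups did not overlap, as for 9.44% of all genes tested. DESeq2 with the block did not call FYN (adjusted p = 0.0991) or SPRY4 (adjusted p = 0.169). PTPRC fell by 0.49 (SE 0.0941, adjusted p = 0.0142), from 75.31 and 39.15 CPM in sgNeg2 to 30 to 49.41 CPM, and SPRY4 by 0.43 (SE 0.0978, adjusted p = 0.0374). For PTPRC and SPRY4 the groups overlapped, since the libraries numbered 2 lay lower in each group. With sgRNA2 alone and the block, PTPRC fell by 0.56 (SE 0.111, adjusted p = 0.0201) and PIK3CA, a catalytic subunit of PI3K, fell by 0.56 (SE 0.122, adjusted p = 0.0349), where 1.38% of all genes were called. DESeq2 called neither with sgRNA2 (adjusted p = 0.136 and 0.325). With sgRNA1 alone and the block 0 of the 106 were called, where 0.887% of all genes were called, and DESeq2 called 0 of the 106. An unadjusted p under 0.05 was found for 21 of the 106, beside 1217 of 12282 genes (edgeR).

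Between the library numbers 20 of the 106 were called higher and 30 lower in number 2, where 21.6% and 23.5% of all genes were called. Of the further STAT5 targets 1 was higher and 6 lower of 12, with a median of -0.395 on the log2 scale against -0.00429 over all genes. Receptors had 2 higher and 5 lower of 13, and RAS and PI3K genes 9 higher and 2 lower of 26. CSF2RB, the shared beta receptor of GM-CSF and IL-3, was counted 65, 104 and 118 times in number 1 and 12, 10 and 7 times in number 2, so it fell by 3.32 (SE 0.29, adjusted p = 6.27e-07). IFNGR2, a chain of the interferon gamma receptor, fell by 1.24 (SE 0.173, adjusted p = 5.19e-05) when tested on the whole-number table. The FPKM of IFNGR2, from the other deposited table, differed less, at 22.83, 19.21 and 18.51 in number 1 and 16.64, 14.54 and 11.49 in number 2. The ligand gene IGF1 rose by 1.13 (SE 0.324, adjusted p = 0.0112) from 11 to 18 counts in number 1 to 29 to 39 in number 2. DESeq2 did not call IGF1 (adjusted p = 0.103). The cyclin gene CCND2 fell by 1.60 (SE 0.107, adjusted p = 4.93e-08). Among the fusion's adaptors and partners the exchange factor gene VAV1 fell by 1.75 (SE 0.114, adjusted p = 4.36e-08), whereas the docking protein gene GAB1 rose by 1.19 (SE 0.108, adjusted p = 9.37e-07).

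Of the 24 negative regulators 3 were called higher and 10 lower in number 2, where 21.6% and 23.5% of all genes were called, with a median of -0.234 against -0.00429 over all genes. INPP5D, the phosphatase SHIP1, fell by 2.12 (SE 0.329, adjusted p = 0.000133), SPRY2, an inhibitor of RAS signalling, fell by 1.08 (SE 0.157, adjusted p = 7.29e-05), and SH2B3, an adaptor (LNK) that restrains JAK2, fell by 1.03 (SE 0.0523, adjusted p = 3.77e-09). SH2B3 was at 230.7 to 264.4 CPM in number 1 and 114.8 to 127.9 CPM in number 2, with no overlap, as for 52.1% of all genes.

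Genes of like pattern were sought by Pearson's r of log2 CPM over the 6 libraries among 9957 genes, as a description. PIM1 was matched most closely by NIPSNAP1 (0.9995) and had 874 genes with r over 0.95, and STAT5A by ZNF865 (0.9989) with 750. SOCS2 was matched most closely by MRPL47 (0.9961), but only 22 genes exceeded 0.95. BCR had 8 such genes and ABL1 had 11. All these points share the same 6 libraries and the split by library number.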

How the data were processed

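Per the submitters' processing notes, hg38, Trim Galore, HISAT2 2.2.1, SAMtools 1.9, HTSeq 0.6.1, RSEM 1.3.2 and DESeq2 1.36.0 were named for these data, with no role or order. The authors deposited whole-number read counts per gene symbol for each library. A second deposited table gave each gene's estimated counts, as computed by the authors, per the file headers. Per the file headers it also held the authors' TPM and FPKM, which scale by gene length and sequencing depth, and no test used TPM. The 5 rows that name no gene held 61.6% to 62.6% of each count table and were left out of all library sizes and tests. The strand setting was not given in the sources used here.

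The tests used edgeR 4.0.16 under R 4.3.3 (TMM, quasi-likelihood F-test, filterByExpr by group, Benjamini-Hochberg over 12282 genes, adjusted p threshold 0.05); SE was taken as the size of the log2 change over the root of F. Estimated counts were rounded. The members and lists were chosen with earlier results of these data known. Genes were named by a rule: all members, list genes called for knockout or either guide, and, between library numbers, list genes called with a fold of at least 2, up to 3 per list. Libraries sharing a number were checked for pairing: deviations from the group means correlated at 0.811, 0.757 and 0.824 over 9966 genes, so the fit with the number as a block is given where it changes a call. It left 2 residual degrees of freedom for group means and 3 for genotype, against 3 and 4 without it, and the biological coefficient of variation was 24.2% without and 6.17% with the block. Replicates differed by more than sampling noise. DESeq2 1.42.0 and limma 3.58.1 were alternatives (log2 FPKM + 1). Scripts were tested on simulated data.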

Additional observations from a re-analysis of the deposited data

How the results depend on the processing

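The replicate block moved the number of members called from 0 to 1 for knockout against control, and likewise from 0 to 1 for sgRNA1 and for sgRNA2; it was 1 under the block with estimated counts, the DESeq2 test and DESeq2 size factors, and with limma on log2(FPKM + 1) it was 1 for knockout and sgRNA2 and 0 for sgRNA1. Leaving out each library with the block gave 1 to 2 members for knockout, 0 to 3 for sgRNA1 and 1 to 2 for sgRNA2. Where this left a group with 1 library, that library was assumed to vary like the other groups. SOCS2 was called in 11 of 11 block settings for knockout (-0.68 to -0.48) and in 9 of 11 for sgRNA1, where limma gave an adjusted p of 0.0571. With all 6 libraries the block changed no other call of a member; without sgNeg2 replicate 1 it added ABL1 for knockout and both guides, and BCR for sgRNA1. Over all genes, knockout calls were 0 without the block, 19 with DESeq2 and 1 with limma, and with the block 226, 387 with estimated counts, 162 with DESeq2 and 194 with limma; leaving out 1 library gave 123 (without sgNeg2 replicate 1) to 212. With the block, sgRNA1 had 109 calls, 178 with estimated counts, 53 with DESeq2, 44 with limma and 59 to 462 with 1 library left out, and sgRNA2 had 170, 289, 73, 94 and 146 to 647. For the library numbers, DESeq2 called 3438 genes against 5529. Of 1086 values of single genes, 1047 stayed on the same side of the threshold, 3 were weaker, 36 stronger and 0 reversed; a change of sign counted as reversed only for a called value or where both values exceeded their SE, and 168 values called in neither setting changed sign. The design has 2 libraries per group and one control guide, and KIT had too few counts to bound a change tightly.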
